A study of Mus musculus with 868 samples.

Results

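Cd79a, Cd79b, Ms4a1, Cd22, Jchain and Mzb1 are genes of B cells and of the plasma cells that B cells give rise to. They were taken by symbol from count tables of 24 mouse tissues, and are 6 of the 24421 genes counted in each table. The tables hold 868 libraries of 3′ mRNA (QuantSeq, an assay that reads the end of each transcript) from C57BL/6N mice in 18 treatment groups. A group has 2 libraries in each tissue, or 4 for Asenapine in brain and for Sofosbuvir in jejunum. The study's title states its aim as forecasting clinical outcomes in people from mouse organs.

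The groups with no drug name are 3: Untreated (WT, no treatment), Sucrose (5% sucrose) and CMCTween (0.5% CMC with 0.25% Tween80). The 15 drug groups are APAP (acetaminophen, sampled at 2 hours), Sofosbuvir, Alendronate, Risedronate, Asenapine, Lurasidone, Olanzapine, Aripiprazole, Cisplatin, Clozapine, Dox (2 mg/mL), EMPA (oral, 2 weeks), Lenalidomide, Repatha and Teriparatide. The labels state no other dose, time or vehicle, and no age, sex, or link between a library and a mouse. P-values therefore measure only the spread between these libraries, which may be technical.

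B cells arise in bone marrow, where precursors rearrange their immunoglobulin genes, and mature B cells fill follicles of spleen, lymph nodes and gut. A mature B cell carries a receptor made of immunoglobulin and the signalling pair CD79A and CD79B, with CD20 (Ms4a1) and the inhibitory co-receptor CD22 beside it. On activation it can become a plasma cell, which loses CD20 and most of its receptor genes and secretes antibody, in the gut wall mainly IgA. Jchain encodes the chain that joins IgA and IgM into polymers, and Mzb1 a chaperone of the endoplasmic reticulum that helps antibody to fold and that plasmacytoid dendritic cells also express. Immunoglobulin constant region genes were not analysed here, since none of the 11 symbols looked for was matched.

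In mm10 with GENCODE M21 the genes lie at chr7:24897381-24902197 on the plus strand (Cd79a) and, on the minus strand, at chr11:106311341-106314762 (Cd79b), chr19:11249675-11266241 (Ms4a1), chr7:30865402-30880342 (Cd22) and chr5:88519809-88527891 (Jchain). All 6 genes are protein-coding. Promoters of 300 bases (250 before and 50 after the start, RefSeq, GRCm38.p6) were matched for 3 of the 6 genes. They are shown to give the sequence at the start of a receptor, a surface and a joining chain gene. Capitals mark matches to sequence motifs of B cell transcription factors. The windows are chr7:24897247-24897546 (plus strand) for Cd79a, chr7:30878979-30879278 (minus strand) for Cd22 and chr5:88527848-88528147 (minus strand) for Jchain, printed 5′ to 3′ on the strand of the gene.
Cd79a: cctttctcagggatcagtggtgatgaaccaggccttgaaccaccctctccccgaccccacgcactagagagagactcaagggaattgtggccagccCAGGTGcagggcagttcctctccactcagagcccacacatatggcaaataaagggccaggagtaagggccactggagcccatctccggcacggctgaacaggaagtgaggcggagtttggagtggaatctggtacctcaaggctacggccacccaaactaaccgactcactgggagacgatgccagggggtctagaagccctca
Cd22: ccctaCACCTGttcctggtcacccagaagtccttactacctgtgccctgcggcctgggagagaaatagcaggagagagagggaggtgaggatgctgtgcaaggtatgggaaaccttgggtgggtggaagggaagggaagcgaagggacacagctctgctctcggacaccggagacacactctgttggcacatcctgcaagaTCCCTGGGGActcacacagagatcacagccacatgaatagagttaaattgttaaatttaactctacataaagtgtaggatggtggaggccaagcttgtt
Jchain: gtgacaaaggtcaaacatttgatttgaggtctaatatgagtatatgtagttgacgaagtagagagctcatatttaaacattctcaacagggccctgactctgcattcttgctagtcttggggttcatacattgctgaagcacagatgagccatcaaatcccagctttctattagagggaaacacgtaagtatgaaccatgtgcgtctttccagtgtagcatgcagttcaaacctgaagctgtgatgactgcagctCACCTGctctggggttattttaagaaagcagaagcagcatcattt
Each promoter holds an E-box CAGGTG, the letters bound by E proteins such as E2A: on the gene's strand in Cd79a, its first base 154 bases before the start, and as its complement CACCTG in Cd22 and Jchain. Of all 32851 promoters of this length, 20.2% hold that E-box on either strand. Cd22 also holds TCCCTGGGGA, a match to the EBF1 motif, which 0.904% of promoters hold. No match to the octamer ATTTGCAT (1.74% of promoters), the PU.1 letters GAGGAAGT (3.20%), the unfolded protein response element TGACGTGG (0.676%) or the NF-kB motif (0.411%) was found in these 3 windows. Both strands were searched and no match overlapped another. RefSeq and GENCODE place the starts of Cd79a and Cd22 differently, so the windows fit the RefSeq starts only.

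Levels are counts scaled to the total count of a library, as the usual CPM. Total counts ran from 451154 to 12811780 (median 877592), and the 48 Untreated libraries, with 2875950 to 12811780, were deeper than most. At the median depth 1 CPM is about 1 count, so low levels rest on few reads. Expression values, not the labels, put the treatments into set A (Untreated, Sucrose, APAP, Sofosbuvir), set B (Alendronate, Risedronate, Asenapine, Lurasidone, Olanzapine) and set C (CMCTween and the other 8 drugs), and drugs were compared only inside their set. Of 48 defining genes of the tissues, 45 were highest in their own tissue among Untreated libraries.

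A pair of libraries went against their labels. In a comparison of each library with the mean profile of every tissue in its set, 866 of 868 libraries were nearest to their own tissue. The other 2 were CMCTween replicate 4 of ileum, nearest to jejunum (r = 0.971 against 0.961 for ileum), and CMCTween replicate 4 of jejunum, nearest to ileum (0.980 against 0.962). The library labelled ileum had 1.75 CPM of Fabp6, the ileal bile acid binding protein gene, where the 15 other set C ileum libraries without cisplatin had 3226 to 10536 CPM. The library labelled jejunum had 6184 CPM of Fabp6, where the other 17 jejunum libraries had 0 to 19.6 CPM. Every set C comparison in ileum and jejunum uses CMCTween as reference, so each called change of the 6 genes there, and the ileum gene lists with cisplatin, are given with and without replicate 4, an alternative chosen after seeing the data. Leaving it out leaves 1 reference library, assumed to vary as the other groups do.

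Without treatment, the 4 receptor and surface genes were highest in spleen, then bone marrow (BM in the labels), then skull bone, while Jchain was highest in the small intestine. In spleen the 2 Untreated libraries held 115 and 130.4 CPM of Cd79a, 322 and 329.6 of Cd79b, 287 and 275 of Ms4a1, and 262 and 253 of Cd22. Bone marrow held 22.6 and 23.3 CPM of Cd79a, 103 and 112 of Cd79b, 63.5 and 70.9 of Ms4a1, and 21.4 and 21.9 of Cd22. Skull, a bone with marrow, held 15.7 and 18.5 CPM of Cd79a and 50.6 and 54.3 of Cd79b. The ranges of these 3 tissues did not overlap for Cd79a, Cd79b or Ms4a1, and for Cd22 skull overlapped the parotid gland, next in order. In bulk tissue, fewer cells of a type and less RNA per cell cannot be told apart.

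Below skull the order was not resolved. For Cd79b, parotid gland (11.6 and 23.2 CPM), lung (10.7 and 17.2), ileum (14.4 and 12.5), jejunum (13.7 and 9.42) and thymus (11.2 and 7.88) overlapped one with the next. Of the 23 neighbouring pairs in the order of 24 tissues, 17 or 18 overlapped for each of the 4 genes. Spleen alone held 65.5% of the summed tissue means of Cd79a, 56.9% of Cd79b, 67.1% of Ms4a1 and 76.4% of Cd22. Cd79a gave no count in either Untreated library of 8 tissues (adrenal gland, eye, liver, pancreas, skeletal muscle, stomach, testis and thyroid gland).

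**Figure D1:**
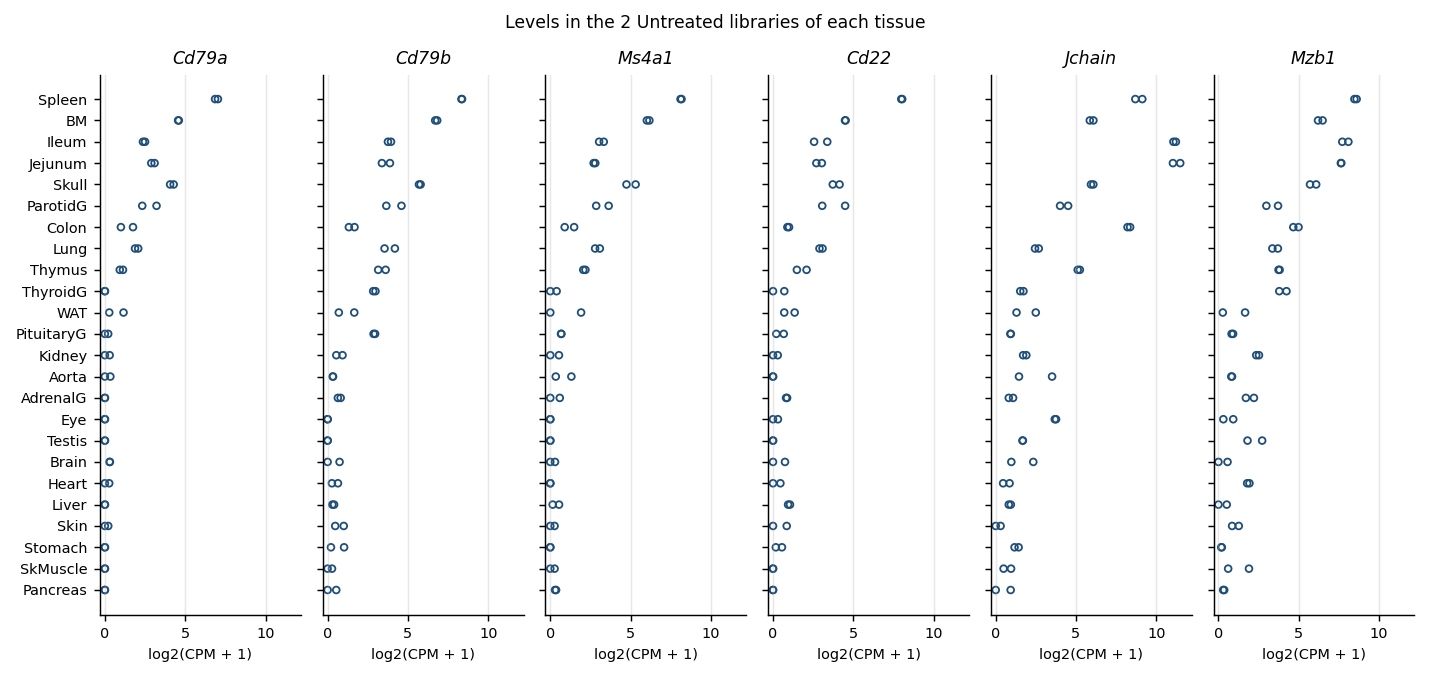
Levels of the 6 genes in the 2 Untreated libraries of each of 24 tissues (x axis, log2 of CPM plus 1; each ring is 1 library; tissues ordered by the mean over the genes). Spleen is at the right edge for the first 4 genes and Mzb1, and jejunum and ileum for Jchain, at 2092 to 2869 CPM.

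Jchain, the antibody joining chain, had another order. Jejunum (2869 and 2092 CPM) and ileum (2377 and 2139) overlapped and stood above spleen (412 and 557), colon (294 and 329), skull (66.5 and 60), bone marrow (66.7 and 56.9) and thymus (33.4 and 36.7). Of these, only jejunum with ileum and skull with bone marrow overlapped. This order is that of the Untreated libraries and did not hold in all groups. With CMCTween, whose values are given below, Jchain in spleen lay above ileum and between the jejunum libraries. Eye held 12.5 and 11.8 CPM of Jchain with no count of Cd79a, Cd79b or Ms4a1 in either library. Per summed count of the 4 receptor and surface genes, Jchain gave 92.1 and 69.4 counts in jejunum, 76.2 and 60.9 in ileum and 52.6 and 55.0 in colon, but 0.418 and 0.564 in spleen and 0.317 and 0.249 in bone marrow. The intestinal ratios were thus above those of spleen and marrow in every library.

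Mzb1 (chr18:35647267-35649367, minus strand) was highest in spleen (388 and 352 CPM), followed by ileum (209 and 272), jejunum (199.6 and 196), bone marrow (72.5 and 88.5), skull (51.1 and 66.9) and colon (24.3 and 30.7), none of which overlapped the next. Thyroid came next with 12.8 and 17.9 CPM of Mzb1, beside no count of Cd79a. Prob1, whose gene ends 983 bases upstream of Mzb1 on the same strand, was at 85.9 and 107 CPM in thyroid, its highest tissue, and at 61.1 and 63.6 in heart, where Mzb1 was 2.81 and 2.45 CPM. Spata24 overlaps Mzb1 on the same strand in the annotation and had 787 and 691 CPM in testis, where Mzb1 was 2.51 and 5.59 CPM. Whether reads of these neighbours entered the Mzb1 counts of thyroid, heart and testis was not tested, since the counting settings are not given in the sources used here.

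Cd79b showed a similar exception in the pituitary gland, with 6.28 and 6.77 CPM beside 0.153 and 0 CPM of Cd79a. The growth hormone gene Gh lies 9475 bases downstream of Cd79b and had 55361 and 55724 CPM there. In thyroid Cd79b was 6.15 and 6.89 CPM, again with no count of Cd79a. Cd79b is therefore read as a B cell measure only where Cd79a is counted too.

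The order of tissues in the Sucrose libraries followed that in the Untreated ones, with Spearman coefficients over 24 tissues of 0.81 for Cd79a, 0.92 for Cd79b, 0.85 for Ms4a1, 0.76 for Cd22, 0.86 for Jchain and 0.88 for Mzb1. Among 17323 genes of at least 5 CPM in a tissue, a pattern close to that of Ms4a1 over the 24 Untreated tissue means was that of Cd79a (Pearson r = 0.985 on log2(CPM + 1)). Cd22 was most like Fcrl1 (0.989) and Bank1 (0.978), and Cd79b most like Ms4a1 (0.952). Jchain was most like Art2a-ps (0.914) and Unc5cl (0.886), then Mzb1 (0.885). Mzb1 was most like Irf8 (0.923), a transcription factor of B cells and dendritic cells, and Pou2af1 (0.903), a B cell coactivator. These coefficients describe tissue means that share their libraries, and carry no test.

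Drug responses were tested with edgeR's quasi-likelihood F test over all genes of a tissue, and a change is called at a Benjamini-Hochberg adjusted p under 0.05. Fold changes are log2 values with their standard error. After a filter on low counts the 6 genes were tested in 57 combinations of gene and tissue, and 8 tissues (adrenal gland, brain, heart, liver, pituitary gland, skin, skeletal muscle and testis) had none left. Over 15 drugs, 60 of 855 tests were called, 26 higher and 34 lower. This is 7.02% against 2.74% of all gene tests over all 24 tissues. DESeq2 called 45, and gave no adjusted p for 13 of the 60. Jchain gave 23 of the calls, Ms4a1 12, Mzb1 11, Cd79a 8, Cd79b 4 and Cd22 2.

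Cisplatin, a DNA-crosslinking drug that kills dividing cells, gave 22 of the 60 calls. That is 38.6% of its 57 tests against 11.1% of all genes, with DESeq2 calling 14 (for 5 of the 22 it gave no adjusted p). Shares of all genes for a drug are over all 24 tissues, also the 8 where none of the 6 genes was tested. The 57 tests thus weigh tissues otherwise, with 6 each in thymus (43.8% of all genes called with cisplatin) and ileum (29.1%). The 14 falls lay in spleen, bone marrow, parotid gland, lung and colon, and the 8 rises in ileum, jejunum and thymus. All drugs of set C share the same CMCTween libraries, so their calls are not independent of each other. APAP gave 9 calls (15.8% against 9.95% of all genes), Sofosbuvir 6 (10.5% against 2.26%), Clozapine 6 (10.5% against 0.675%) and Aripiprazole 4 (7.02% against 1.46%). Asenapine and Risedronate gave 3 each (5.26%, against 4.67% and 1.92% of all genes) and Repatha 2 (3.51% against 0.985%). Alendronate, Dox, EMPA, Lurasidone and Olanzapine gave 1 each (1.75%), against 0.704%, 0.994%, 0.714%, 1.63% and 3.26% of all genes. The shares of Asenapine and Lurasidone were thus near that of all genes, and that of Olanzapine was below it. Lenalidomide, a drug used against plasma cell tumours, gave 0 of 57 by edgeR, where 0.118% of all genes were called. At an unadjusted p under 0.05 it gave 5, and by DESeq2 0. It gave 3 against all other groups of the set and 1 when adjusted over all comparisons. Teriparatide gave 0 of 57, where 0.651% of all genes were called (12 unadjusted, and 1 by DESeq2). It gave 3 against all other groups and 3 when adjusted over all comparisons.

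**Figure D2:**
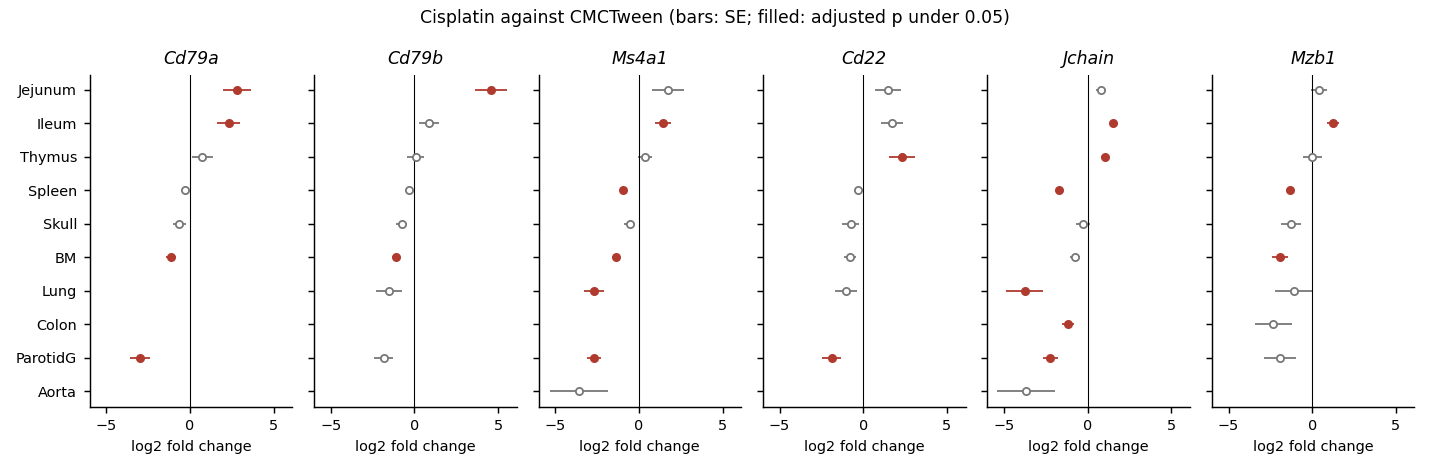
Log2 fold change of each gene with cisplatin against CMCTween in the 10 tissues with at least 2 genes tested (points, with standard error; filled where the adjusted p is under 0.05; 2 libraries a group). All called changes in bone marrow, spleen, lung, colon and parotid gland are below 0, and all in ileum, jejunum and thymus above 0.

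In bone marrow 4 of the 6 genes fell with cisplatin, where 18.6% of all genes were called and 10.9% fell. Ms4a1 was 45.8 and 54.1 CPM with cisplatin and 122 and 125 CPM with CMCTween, and fell by 1.36 ± 0.22 (adjusted p = 3.00e-06). Cd79b, the receptor signalling chain, was 36.1 and 39.3 CPM against 74.7 and 80.4, and fell by 1.10 ± 0.26 (adjusted p = 0.00129). Its partner Cd79a was 20.5 and 21.7 CPM against 50.6 and 40.2, and fell by 1.13 ± 0.31 (adjusted p = 0.00622). For these 3 genes both cisplatin libraries lay below every other library of set C, the lowest of which were at 96.6, 53.4 and 32.8 CPM.

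Mzb1 was 4.82 and 8.12 CPM against 22.8 and 23.9 in bone marrow, and fell by 1.91 ± 0.48 (adjusted p = 0.00247, 10 against 46 counts). All other set C libraries held at least 18.2 CPM of Mzb1. Cd22 was 9.63 and 20.3 CPM against 22.8 and 26.5 (-0.81 ± 0.35, adjusted p = 0.107), and Jchain 72.2 and 71.7 against 106 and 127 (-0.75 ± 0.31, adjusted p = 0.0824); neither passed. The Cd79a call was lost without cisplatin replicate 1 or CMCTween replicate 3 (adjusted p up to 0.0647), and the Mzb1 call without cisplatin replicate 1 (0.0723). The median over the 6 genes was -1.11, and over all genes 0.00.

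**Figure D3:**
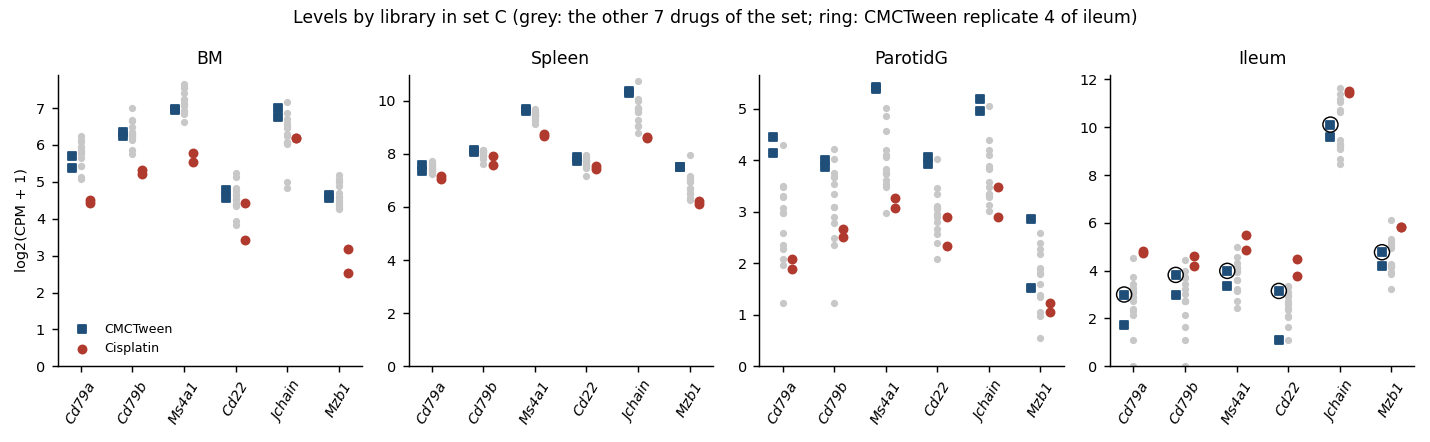
Each set C library of bone marrow (BM), spleen, parotid gland (ParotidG) and ileum (y axis, log2 of CPM plus 1): CMCTween as squares, cisplatin as dark circles, the other 7 drugs in grey, and CMCTween replicate 4 of ileum ringed. In bone marrow both cisplatin libraries lie below all others for Cd79a, Cd79b, Ms4a1 and Mzb1, while in the parotid gland the highest library is a CMCTween one for Cd79a and Ms4a1.

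Genes of B cell precursors fell in the same marrow. All 8 tested were called lower, with a median of -5.16, from Cd93 (-0.59 ± 0.20) and Il7r (-0.64 ± 0.23) to Rag1 below, and their difference from the 6 genes was not tested. Igll1 and Vpreb1, which encode the surrogate light chain of the precursor receptor, fell by 7.69 ± 1.02 and 5.88 ± 0.69, and the recombinase genes Rag1 and Rag2 by 8.37 ± 1.04 and 5.91 ± 1.72. Summed over the list, precursor genes were at 173 to 179 CPM with cisplatin and 488 to 509 with CMCTween. Of 17 other genes of mature B cells 7 fell (median -0.94), among them Fcrla (-2.36 ± 0.38), Blnk (-1.84 ± 0.34), Spib (-1.77 ± 0.27) and the B lineage factor Ebf1 (-1.73 ± 0.29). Of 12 genes of receptor signalling 3 fell, among them Blnk and Pik3ap1 (-1.48 ± 0.41), with a median of 0.04. The list of other plasma cell genes also holds genes of the secretory pathway, which other cells can express. Of 8 of them Irf4 fell by 2.07 ± 0.46, while Xbp1 and Edem1, of the unfolded protein response, rose by 0.62 ± 0.19 and 0.67 ± 0.18.

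Other cell types of the marrow moved too, and their part in these results was not tested. All 4 red cell precursor genes tested fell (median -9.57), and the list's summed level went from 3104 to 3707 CPM with CMCTween to 3.61 to 5.41 with cisplatin. Of 10 neutrophil genes 6 rose (median 0.40), from 71570 to 79520 CPM in sum to 87917 to 107153. Of 10 cell division genes 5 fell (median -0.54). Of 6 genes of plasmacytoid dendritic cells, which share Mzb1, 3 fell (median -0.83), from 301 to 323 CPM in sum to 157 to 168. Of 8 T cell genes Cd2 alone fell (median 0.44).

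In skull, whose marrow shares these cell types, none of the 6 genes was called (2 at an unadjusted p under 0.05, with 8.97% of all genes called). All 6 values lay below 0 (median -0.70), from Jchain at -0.30 ± 0.41 to Mzb1 at -1.26 ± 0.59 (8.10 and 7.53 CPM against 20.1 and 17.8, adjusted p = 0.211). Of 7 precursor genes tested there 4 fell, Vpreb1 by 8.19 ± 0.99, Rag1 by 8.02 ± 1.06, Igll1 by 6.71 ± 1.5 and Vpreb3 by 3.13 ± 0.52. A direct test of bone marrow against skull called none of the 6 genes (45 of 10260 genes overall), the lowest adjusted p being that of Ms4a1 (difference -0.78 ± 0.31, adjusted p = 0.407).

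In spleen 3 of the 6 genes fell with cisplatin, where 5.25% of all genes were called and 2.76% fell. Jchain was 385 and 399 CPM with cisplatin and 1259 and 1336 with CMCTween, and fell by 1.71 ± 0.21 (adjusted p = 6.61e-07). Mzb1 was 73.9 and 68.8 CPM against 179 and 183, and fell by 1.32 ± 0.21 (adjusted p = 6.35e-05). Ms4a1 was 411 and 430.1 CPM against 781 and 832, and fell by 0.92 ± 0.13 (adjusted p = 7.68e-06). In all 3 genes both cisplatin libraries were the lowest of set C.

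For Jchain and Mzb1 in spleen CMCTween was near the top of set C, whose other drugs spanned 444 to 1729 CPM of Jchain and 75.5 to 247 of Mzb1. Against all other groups of the set, Jchain fell by 1.13 (adjusted p = 1.05e-05) and Mzb1 by 0.79 (0.00182). Cd79a was 144 and 133 CPM against 188 and 162 (-0.32 ± 0.16, adjusted p = 0.284), Cd79b 238 and 190.1 against 267 and 281 (-0.33 ± 0.16, 0.272), and Cd22 186 and 169.9 against 234 and 214 (-0.32 ± 0.15, 0.263). None of these 3 receptor genes passed, although their groups did not overlap.

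Of 12 other plasma cell genes 4 fell in spleen (median -0.89): the disulphide isomerase gene Txndc5 by 1.5 ± 0.25, Creld2 by 1.36 ± 0.38, the plasma cell factor Irf4 by 0.96 ± 0.27 and Edem1 by 0.92 ± 0.27. Of 18 other genes of mature B cells 5 fell (median -0.25), the farthest being Fcrla (-1.02 ± 0.23) and Fcer2a (-0.73 ± 0.22). Of 9 cell division genes 6 fell (median -1.58), and of 8 neutrophil genes 4 rose (median 0.73), from 255 to 294 CPM in sum to 1165 to 1760. Of 14 T cell genes Cd2 fell (median -0.25). The part of these cells in the fall of Jchain and Mzb1 was not tested.

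The responses of bone marrow and spleen were also compared directly, in a fit that took the libraries of both tissues as independent. Whether same-numbered libraries of both tissues come from the same mouse is not given in the labels. Jchain fell less in marrow than in spleen, by 0.94 ± 0.31 (adjusted p = 0.0414, with 861 of 10309 genes called). Leaving out any 1 of the 8 libraries ended that call. The marrow minus spleen difference was -0.82 ± 0.34 for Cd79a and -0.78 ± 0.32 for Cd79b, and neither passed (adjusted p = 0.138 and 0.131). For Ms4a1, Cd22 and Mzb1 it was -0.45, -0.50 and -0.59, with adjusted p of 0.297, 0.518 and 0.614.

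**Figure D4:**
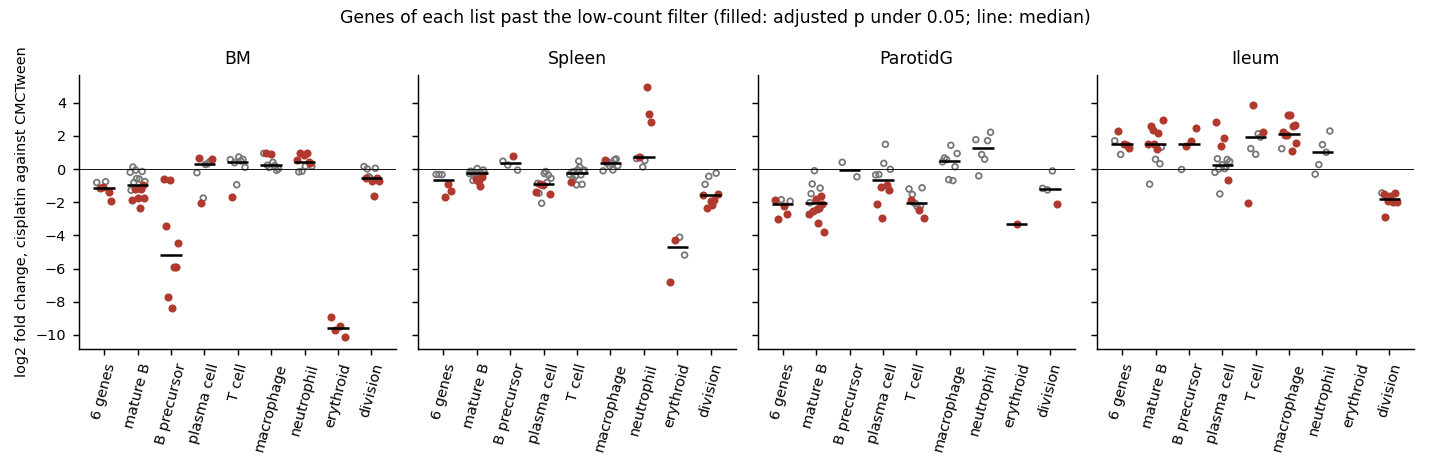
Log2 fold change with cisplatin against CMCTween of every tested gene of 9 lists in 4 tissues (y axis; filled where the adjusted p is under 0.05; black lines are medians; "mature B" and "plasma cell" are the lists without the 6 genes). The B cell precursor median is -5.16 in bone marrow, and the mature B cell median is -2.06 in the parotid gland and 1.53 in ileum.

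In the parotid gland 4 of the 6 genes fell with cisplatin (5.70% of all genes called, 2.91% lower). Ms4a1 was 8.57 and 7.41 CPM against 41.7 and 40.5 with CMCTween, and fell by 2.70 ± 0.42 (adjusted p = 6.67e-05). Cd79a was 3.21 and 2.69 CPM against 16.7 and 20.7, and fell by 2.98 ± 0.60 (adjusted p = 0.00147, 7 against 38 counts). Jchain was 6.42 and 10.1 CPM against 35.5 and 30.2, and fell by 2.24 ± 0.45 (adjusted p = 0.00162). For each of these 3 genes, however, the highest library of set C was a CMCTween one, and the other drugs reached down to 1.34 CPM of Cd79a and 6.84 of Ms4a1.

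Against all other groups of the set the parotid falls were smaller: 1.84 for Cd79a (adjusted p = 0.0204), 1.62 for Ms4a1 (0.00231) and 1.27 for Jchain (0.0257). Cd22 fell by 1.88 ± 0.57 (6.42 and 4.04 CPM against 15.6 and 14.1, adjusted p = 0.0428), a call lost against all other groups (0.132) and without any 1 of the 4 libraries (0.137 to 0.25). Cd79b did not pass (-1.84 ± 0.58, adjusted p = 0.0549), and Mzb1 had 3 against 8 counts (ratio 0.313, 95% interval 0.0535 to 1.30). Of 14 other mature B cell genes 9 fell (median -2.06), such as the follicular gene Cr2 by 2.51 ± 0.38. In the list of plasma cells and their secretory pathway, Fkbp11 fell by 2.94 ± 0.42 and Derl3 by 2.08 ± 0.35. Txndc5, Edem1 and Sec11c of that list also fell, and its other genes were not called. T cell genes moved alongside: 3 of 10 fell (median -2.05), from 105 to 136 CPM in sum to 39.6 to 49.8. Clozapine and EMPA against the same CMCTween libraries also called Ms4a1 here (-1.71 ± 0.37 and -1.65 ± 0.36, adjusted p = 0.0489 and 0.0306, with 0.137% and 0.331% of all genes called), and neither call held against all other groups (0.807 and 0.756).

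In ileum the direction was the opposite. With both CMCTween libraries as reference, 4 of the 6 genes rose with cisplatin, where 29.1% of all genes were called and 14.7% rose. Jchain was 2908 and 2766 CPM with cisplatin and 763 and 1105 with CMCTween, the second being the library nearer to jejunum, and rose by 1.54 ± 0.20 (adjusted p = 5.21e-07). Mzb1 was 56.2 and 55.6 CPM against 17.4 and 26.3 (1.26 ± 0.35, adjusted p = 0.00722), Cd79a 25.4 and 27.1 against 2.33 and 7.02 (2.33 ± 0.69, 0.0104) and Ms4a1 43.5 and 28.5 against 9.31 and 14.9 (1.45 ± 0.50, 0.0272). The cisplatin libraries held more Cd79a than every other set C library of ileum, the highest of which had 21.9 CPM.

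Without CMCTween replicate 4, 22.8% of all genes were called in ileum. Jchain then rose by 1.69 ± 0.24 (adjusted p = 1.88e-06), Mzb1 by 1.47 ± 0.47 (0.0219), Cd79a by 3.23 ± 1.04 (0.0217) and Cd22 by 3.53 ± 1.15 (0.0236), the last not called with both libraries (1.71 ± 0.68, adjusted p = 0.0552). Ms4a1 lost its call (1.71 ± 0.67, 0.0614). Cd79b passed in neither (0.89 ± 0.59, adjusted p = 0.274, and 1.30 ± 0.80, 0.252). Without that library and with all other groups of set C as reference, all 6 genes rose, from 1.10 for Mzb1 (adjusted p = 0.000916) to 1.98 for Cd79a (0.000855), where 43.3% of all genes were called.

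With both CMCTween libraries, leaving out 1 cisplatin library ended the ileum call of Ms4a1 (replicate 1), or of Cd79a and Mzb1 (replicate 3, adjusted p = 0.0531 for Mzb1). Of 11 other mature B cell genes 7 rose (median 1.53), such as Tnfrsf13c by 2.95 ± 0.96 and Cr2 by 2.39 ± 0.53. Of 13 other plasma cell genes Derl3, Prdm1 and Irf4 rose (2.84 ± 0.70, 1.88 ± 0.28 and 1.37 ± 0.42) and Txndc5 fell (-0.62 ± 0.22), for a median of 0.27. Of 10 macrophage genes 9 rose (median 2.14), from 433 to 593 CPM in sum to 1912 to 2024. Of 4 genes of follicle and lymph node stroma 3 rose, led by the B cell chemokine gene Cxcl13 (3.83 ± 0.36), and 9 of 10 cell division genes fell (median -1.79). Without CMCTween replicate 4, when more genes passed the filter, 8 of 16 mature B cell genes rose (median 1.91), as did 8 of 10 macrophage genes (median 2.1) and 2 of 4 stroma genes, and 9 of 10 cell division genes fell (median -1.77). Derl3, Prdm1 and Irf4 again rose and Txndc5 fell, with a median of -0.01 over the 13 plasma cell genes, against 0.27 with both libraries. The 2 cisplatin libraries had 15.7 and 16.3 CPM of Fabp6, under all other set C ileum libraries except CMCTween replicate 4, but 97.9 and 99.7 CPM of Slc10a2, the ileal bile acid transporter gene. The part of these shifts in the rise of the B cell genes was not tested.

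In jejunum 2 of the 6 genes were called with cisplatin, both on few counts (5.68% of all genes called, 2.79% higher). Cd79a was 21.1 and 8.36 CPM against 2.67 and 1.14 (17 against 3 counts, ratio 7.43, 95% interval 2.15 to 39.6, adjusted p = 0.0410). Cd79b was 24.9 and 12.5 CPM against 1.34 and 0 (22 against 1 count, ratio 28.9, 4.67 to 1191, adjusted p = 0.00378). Without CMCTween replicate 4 neither was called (adjusted p = 0.240 and 0.0739). Without it and against all other groups of the set, the 4 receptor and surface genes rose, Cd79a by 1.55 (adjusted p = 0.0456), Cd79b by 2.5 (0.00193), Ms4a1 by 2.37 (0.0251) and Cd22 by 1.91 (0.0249), among 14.1% of all genes. Jchain, at 1285 and 2439 CPM with cisplatin, did not pass with both reference libraries (0.79 ± 0.30, adjusted p = 0.118) or without replicate 4 (0.44 ± 0.34, 0.570).

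In thymus, where cisplatin changed 43.8% of all genes and raised 22.1%, Jchain and Cd22 rose. Jchain was 171 and 212 CPM against 109 and 57.6 (1.03 ± 0.26, adjusted p = 0.00109), above every other set C library (44.4 to 128). Cd22 was 10 and 21.5 CPM against 4.84 and 0 (2.31 ± 0.76, adjusted p = 0.0125, and 0.0644 by DESeq2). The other 4 genes did not pass: Cd79a was at 0.73 ± 0.62 (adjusted p = 0.361), Ms4a1 at 0.37 ± 0.40 (0.489), Cd79b at 0.08 ± 0.51 (0.920) and Mzb1 at 0.02 ± 0.55 (0.986). Of 14 T cell genes, which make up most of this organ, 13 fell (median -2.13), from 7988 to 7996 CPM in sum to 1752 to 2099, 7 of 9 macrophage genes rose (median 1.34), and 6 of 7 neutrophil genes rose (median 2.50), from 170 to 177 CPM in sum to 502 to 616. CPM values are shares of a library, and the part of these shifts in the rises was not tested.

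In lung (4.22% of all genes called, 2.23% lower) Ms4a1 was 1.97 and 5.02 CPM against 29.2 and 16.0, and fell by 2.69 ± 0.61 (adjusted p = 0.00527). Jchain had 2 counts against 19 there (0 and 1.67 CPM against 4.17 and 21.3, ratio 0.0699, 95% interval 0.00790 to 0.290, adjusted p = 0.0427), a call lost against all other groups of the set (0.0801). In colon (10.5% of all genes called) Jchain was 187 and 227 CPM against 456 and 448, and fell by 1.18 ± 0.36 (adjusted p = 0.0260, and 0.140 by DESeq2). The other set C colon libraries held 232 to 527 CPM, so both cisplatin libraries were the lowest. Colon and ileum moved in opposite directions for this gene, and the difference was not tested.

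In the other tissues few of the 6 genes passed the filter, and none was called with cisplatin. In aorta (3.95% of all genes called) Jchain was 1.53 and 1.67 CPM against 42.4 and 5.56, with 2 against 43 counts (adjusted p = 0.262), and Ms4a1 had 1 count against 21 (0.283). In white fat (9.02%) Jchain had 7 counts against 56 (adjusted p = 0.179), and in stomach (3.79%) 26 against 4 (0.159), nearly all of them in 1 cisplatin library at 29.0 CPM. Jchain in pancreas (4.06%) and eye (4.36%) and Mzb1 in kidney (22.9%) and thyroid (3.69%) had adjusted p of 0.645, 0.821, 0.652 and 0.984.

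Jchain in the small intestine also stood out with other drugs of set C. In ileum it was 2675 and 2099 CPM with Aripiprazole, 2320.2 and 3156 with Clozapine and 1695 and 1579 with Repatha. Dox (590 and 559 CPM), EMPA (636 and 551), Lenalidomide (609 and 357) and Teriparatide (409 and 715) lay below all of these and below the larger CMCTween value. Against both CMCTween libraries Jchain rose by 1.55 ± 0.20 with Aripiprazole (adjusted p = 1.32e-05, with 8.27% of all genes called), by 1.62 ± 0.20 with Clozapine (9.66e-06, 2.51%, 1.56% higher) and by 1.05 ± 0.20 with Repatha (0.00108, 8.24%). Without CMCTween replicate 4 these were 1.72 ± 0.24 (adjusted p = 0.000242), 1.79 ± 0.24 (0.000102) and 1.22 ± 0.23 (0.00621), so all 3 calls stood. Mzb1 rose with Clozapine by 1.25 ± 0.31 (31.4 and 68.9 CPM against 17.4 and 26.3, adjusted p = 0.0247), a call lost without that library (0.224).

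**Figure D5:**
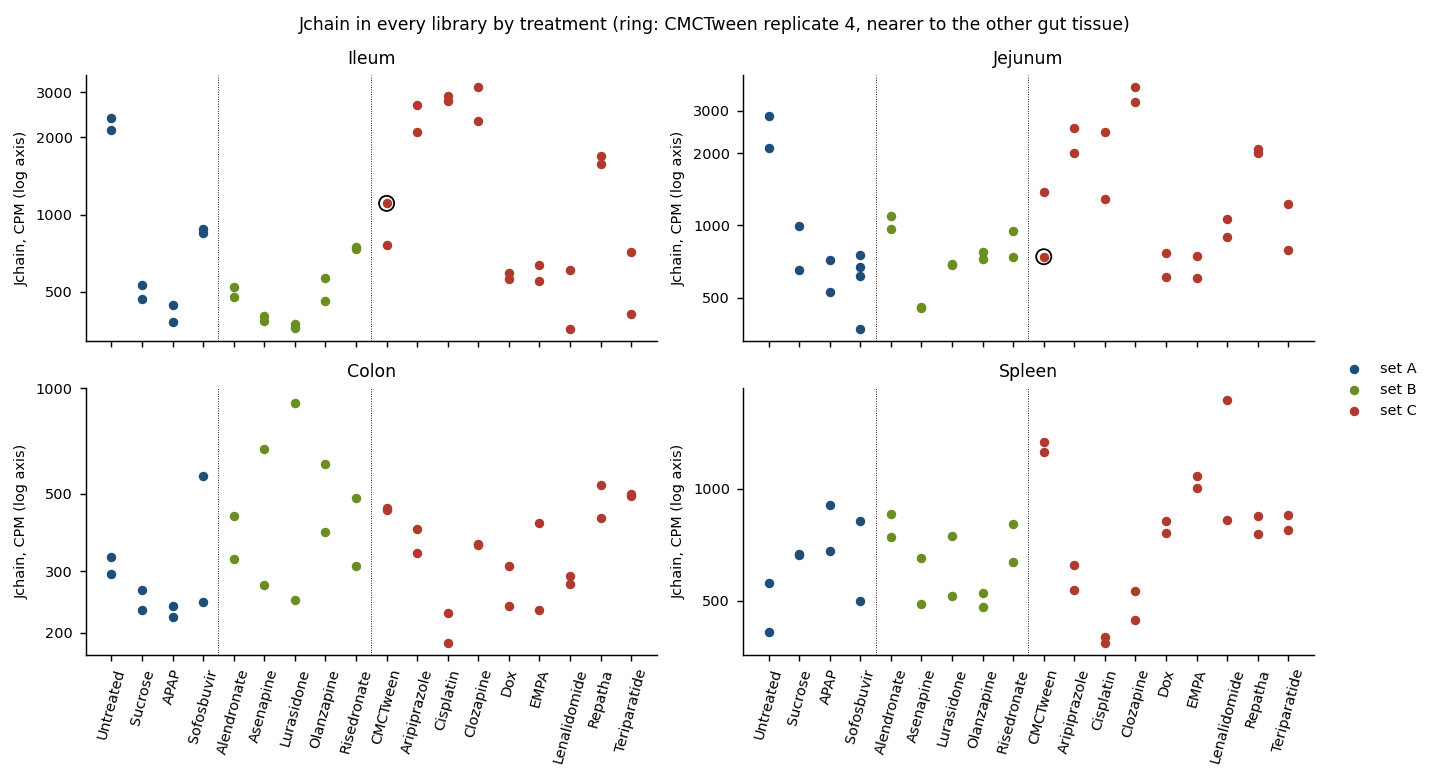
Jchain in every library of ileum, jejunum, colon and spleen by treatment (y axis, CPM on a log axis; each point is 1 library, coloured by set; rings mark CMCTween replicate 4 of the gut). In ileum Untreated, Aripiprazole, Cisplatin, Clozapine and Repatha libraries lie at 1579 to 3156 CPM and all others at 1105 or below.

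Jejunum had the same 3 drugs high. Jchain was 1993 and 2547 CPM with Aripiprazole, 3281 and 3785 with Clozapine and 2085 and 1999 with Repatha, against 1382 and 739.9 with CMCTween, the second being the library nearer to ileum. The fold changes of 1.32 ± 0.30, 1.74 ± 0.30 and 1.18 ± 0.30 passed narrowly (adjusted p = 0.0351, 0.0257 and 0.0475, with 1.16%, 0.0458% and 1.05% of all genes called). None passed without that library (0.99, 1.39 and 0.84, adjusted p = 0.208, 1 and 0.364). Without it and against all other groups of the set, Jchain was higher by 0.98 with Aripiprazole (0.00649) and by 1.42 with Clozapine (0.000342). Over both gut tissues, 13 calls were made in set C with both CMCTween libraries and 7 without replicate 4, of which 6 were shared, and for Jchain 7 and 4.

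In spleen Clozapine and Aripiprazole went the other way from the small intestine. Jchain was 531 and 444 CPM with Clozapine and 625 and 535 with Aripiprazole against 1259 and 1336 with CMCTween, and fell by 1.46 ± 0.20 (adjusted p = 3.92e-05, with 0.511% of all genes called, 0.216% lower) and 1.11 ± 0.21 (0.00287, 0.874%, 0.481% lower). Mzb1 was 75.5 and 91.8, and 77.4 and 80 CPM, against 179 and 183, and fell by 1.15 ± 0.20 (adjusted p = 0.000817) and 1.14 ± 0.21 (0.00287). Against all other groups of the set, only Jchain with Clozapine remained called (-0.86, adjusted p = 0.00844), with 0.252 for Jchain and 0.205 for Mzb1 with Aripiprazole and 0.148 for Mzb1 with Clozapine. Of 12 other plasma cell genes, Txndc5 and Sec11c fell with Clozapine and Txndc5 with Aripiprazole (medians -0.85 and -0.89), while S100a8 and S100a9 of neutrophils rose with both. No receptor or surface gene of the 6 was called with either drug in spleen.

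Dox lowered Jchain in bone marrow, the only call among the 6 genes for that drug. It was 31.0 and 27.3 CPM against 106 and 127 with CMCTween, and every other set C library held 64 to 143 CPM. The fall was 1.99 ± 0.33 (adjusted p = 0.00193), and 1.60 against all other groups (adjusted p = 9.44e-05). DESeq2 called 0 of the 57 tests with Dox, so it did not make this call. Only 0.0326% of all genes were called in that comparison, 3 of 9194. The dose label of Dox is a concentration, and the labels do not spell out the name.

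Within set A the 2 control groups differed in these genes, with 7 calls of 57 for Sucrose against Untreated (12.3% against 6.29% of all genes). The Untreated libraries were also deeper than most (2875950 to 12811780 counts), so treatment and library depth cannot be told apart here. In ileum Jchain was 469 and 530.0 CPM with Sucrose and 2377 and 2139 in Untreated. It was lower with Sucrose by 2.12 ± 0.20 (adjusted p = 4.79e-08, with 4.83% of all genes called, 2.15% lower). Jchain in the APAP libraries of ileum, given below, lay nearer to Sucrose than to Untreated. Mzb1 was 29.5 and 34.7 CPM with Sucrose against 209 and 272 in Untreated ileum, lower by 2.84 ± 0.27 (adjusted p = 4.79e-08). In the parotid gland (14.9% of all genes called, 6.45% higher) Ms4a1 went the other way, at 87.8 and 44.2 CPM against 6.25 and 11.4 (2.47 ± 0.30, adjusted p = 6.77e-07).

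The smaller parotid rises with Sucrose rested on single libraries. Jchain (102 and 37.4 CPM against 21.8 and 15.1, 1.43 ± 0.30, adjusted p = 0.00116) lost its call without Sucrose replicate 1 (0.277), and Mzb1 (50.8 and 26.7 against 6.92 and 12.1, 1.60 ± 0.37, 0.00372) without Sucrose replicate 1 or Untreated replicate 2 (up to 0.157). Of 14 other mature B cell genes in the parotid gland 6 rose (median 0.96), and 2 of 3 lymph node stroma genes, Glycam1 (1.18 ± 0.31) and Ccl19 (1.02 ± 0.28), rose beside them. Of 6 neutrophil genes Ngp, S100a8, Camp and S100a9 rose (2.70 ± 0.85, 2.02 ± 0.49, 1.99 ± 0.68 and 1.47 ± 0.51) and Ltf fell by 5.57 ± 0.49, while 2 of 8 macrophage genes and the 1 red cell gene tested fell. Of 10 other genes of plasma cells and their secretory pathway 7 fell (median -0.85), while Jchain and Mzb1 rose. Those that fell were Sdc1, Derl3, Fkbp11, Sec11c, Edem1, Txndc5 and Xbp1. Which cells of the gland these transcripts came from was not tested. The part of these other cell types in the rises was not tested. In spleen Ms4a1 was 459 and 402 CPM against 287 and 275 (0.59 ± 0.13, adjusted p = 0.00567, with 1.87% of all genes called), and in thymus Jchain 115 and 82.3 against 33.4 and 36.7 (1.39 ± 0.26, 0.000122, 17.8%).

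Most calls of APAP and Sofosbuvir, which share both control groups as their reference, moved with the choice of control. With the mean of Untreated and Sucrose 15 calls were made for the 2 drugs, against 22 with Untreated alone and 7 with Sucrose alone. In ileum Jchain was 380.3 and 443 CPM with APAP (-1.26 ± 0.18, adjusted p = 8.23e-06, with 16.0% of all genes called, 6.75% lower), but -0.20 against Sucrose alone (0.663). Mzb1 was 15.6 and 36.2 CPM (-1.65 ± 0.30, 0.000165), and -0.23 against Sucrose alone (0.804). For Sofosbuvir, Mzb1 in ileum changed sign between references, from -1.05 ± 0.27 (adjusted p = 0.0470, with 1.14% of all genes called) to 0.37 against Sucrose alone (0.774). The rise of Jchain with APAP in thymus (131 and 104 CPM, 0.76 ± 0.24, 0.0160, 25.4%) was likewise 0.06 against Sucrose alone (0.929).

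APAP in jejunum gave 3 calls, where 22.1% of all genes were called and 9.52% fell. Mzb1 was 18.4 and 22.5 CPM against 199.6 and 196 in Untreated and 65.3 and 73.7 in Sucrose, below every other library of set A. It fell by 2.38 ± 0.37 (adjusted p = 0.000106), and by 1.65 against Sucrose alone (0.0165), and by 3.11 against Untreated alone (1.91e-05), so it was called with each reference. Jchain was 527 and 717 CPM against 2869, 2092, 650.0 and 994, overlapping Sucrose, and fell by 1.07 ± 0.27 (adjusted p = 0.00587). It did not pass against Sucrose alone (-0.30, adjusted p = 0.578) or without APAP replicate 1 (0.149). Cd79b had 3 counts against 91 (ratio 0.155, 95% interval 0.0313 to 0.467, adjusted p = 0.0294), a call lost without 4 of the 6 libraries.

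Of the other lists in that jejunum comparison, 2 of 11 mature B cell genes fell (Cr2 by 3.64 ± 0.86 and Pou2af1 by 1.73 ± 0.38, median -1.29) and 2 of 12 plasma cell genes (Tnfrsf17, the BCMA receptor gene, by 2.98 ± 0.73 and Sec11c by 1.13 ± 0.22, median -0.71). Of 4 stroma genes 2 also fell, Ccl19 by 6.64 ± 1.77 and Madcam1, the vessel addressin of gut lymphoid tissue, by 4.60 ± 0.86, as did 7 of 10 cell division genes (median -1.47). How much lymphoid tissue each piece of gut held was not tested.

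Of the other APAP calls, 1 passed against each control alone. In the parotid gland Cd79b was 5.75 and 2.80 CPM against 11.6 and 23.2 in Untreated and 36.0 and 25.9 in Sucrose (-2.04 ± 0.51, adjusted p = 0.00986, with 6.69% of all genes called). It passed against each control alone (adjusted p = 0.0240 for Untreated and 0.00836 for Sucrose). In kidney Mzb1 was 14.1 and 12.6 CPM with APAP against 4.75, 4.11, 5.94 and 0.915 in the controls (1.73 ± 0.55, adjusted p = 0.0279, with 14% of all genes called), but missed the threshold against each alone (0.0514 and 0.106). In Untreated kidney Mzb1 gave 21 and 18 counts, and the 4 receptor and surface genes together 7 and 3. Ms4a1 in bone marrow rose by 0.55 ± 0.17 with APAP (95.9 and 129 CPM against 63.5 to 107, adjusted p = 0.0385, with 5.50% of all genes called), with overlap, and did not pass against Sucrose alone (0.538).

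With Sofosbuvir, Jchain was called higher in white fat (WAT) and pancreas. Its level in white fat also varied without that drug, with 28 counts in each CMCTween library of set C. In white fat it was 190.5 and 20.3 CPM, against 1.45 and 4.63 in Untreated and 18 and 0.894 in Sucrose (4.36 ± 0.79, adjusted p = 0.00110, with 3.92% of all genes called). One library held most of the reads, the other lay just above a Sucrose library, and the call was lost against Sucrose alone (0.0896). In pancreas Jchain was 17.7 and 16.5 CPM against 0, 0.905, 3.81 and 0 (31 against 8 counts, 3.72 ± 0.88, adjusted p = 0.0124, with 3.44% of all genes called), and not called against Sucrose alone (0.783). In jejunum Jchain (369 to 750.5 CPM in 4 libraries) and Mzb1 (27.2 to 75.6 CPM) fell by 1.25 ± 0.21 and 1.48 ± 0.27 (adjusted p = 0.000608 and 0.000958, with 13.0% of all genes called, 5.59% lower), neither called against Sucrose alone (0.264 and 0.155). Earlier results set Sofosbuvir replicates 3 and 4 of jejunum apart from set A, and without them the APAP and Sofosbuvir calls of jejunum were again 5. Jchain in the parotid gland fell by 1.34 ± 0.34 (9.94 and 17.7 CPM, adjusted p = 0.0324, with 1.51% of all genes called), a call not made against Untreated alone (0.298).

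Set B has no control, so a value there is a difference from the other 4 drugs of the set. Asenapine, an antipsychotic, was higher in Cd79a and lower in Ms4a1 in spleen, where 6.38% of all genes were called. Cd79a was 258 and 239 CPM against 137 to 227 (0.55 ± 0.12, adjusted p = 0.00284), and Ms4a1 367 and 389 against 442 to 732 (-0.67 ± 0.11, adjusted p = 9.85e-05). Neither pair overlapped the other drugs. In the parotid gland Cd79a was 23.0 and 11.5 CPM with Asenapine against 2.07 to 9.06 (1.68 ± 0.43, adjusted p = 0.00840, with 8.96% of all genes called).

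Risedronate, a bisphosphonate, had 734 and 748 CPM of Jchain in ileum against 362 to 564 for the other 4 drugs (0.69 ± 0.15, adjusted p = 0.00306, with 9.64% of all genes called). In bone marrow (13.0% of all genes called) Risedronate was higher in Cd79a (85.2 and 75 CPM, 0.61 ± 0.19, adjusted p = 0.0240, and 0.0828 by DESeq2) and lower in Ms4a1 (46.2 and 71.2 CPM, -0.62 ± 0.19, 0.0201), both with overlap. Alendronate, the other bisphosphonate, was higher in Ms4a1 there (101 and 131 CPM, 0.71 ± 0.18, adjusted p = 0.0149, with 4.01% of all genes called), again with overlap. Neither Ms4a1 call held against the antipsychotics alone (adjusted p = 0.120 and 0.105). Lurasidone was lower in Cd79a in marrow (27.9 and 38.7 CPM against 39.1 to 87.4, -0.89 ± 0.26, adjusted p = 0.0421, with 2.58% of all genes called), a call lost in a fit of the set B libraries alone (0.0797). DESeq2 gave it no adjusted p. Olanzapine was higher in Ms4a1 in spleen (646 and 732 CPM, 0.43 ± 0.10, adjusted p = 0.0197, with 2.14%), with overlap and not against the bisphosphonates alone (0.110).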

How the data were processed

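The authors sequenced 3′ mRNA libraries (QuantSeq, NextSeq 500) from flash-frozen, Trizol-extracted tissue, per the labels' protocols. They deposited whole-number read counts per gene, 1 table per tissue, and these counts were used as deposited. The submitters' processing notes name bcl2fastq 2.17, TopHat2 2.1.1, HTSeq 0.9.1 and mm10, and the annotation and counting settings are not given in the sources used here. Groups come from the labels. Total counts ran from 451154 to 12811780, and intervals cover counting error only, since the reads carry no molecular identifiers here.

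CPM were computed from column sums. For each tissue 1 edgeR (4.0.16, R 4.3.3, limma 3.58.1) quasi-likelihood fit held all libraries and 18 groups, with TMM scaling and filterByExpr (minimum count 10). Set C drugs were compared with CMCTween, APAP and Sofosbuvir with the mean of Untreated and Sucrose, and set B drugs with the other 4 of the set. P-values were adjusted by Benjamini-Hochberg over all genes of a comparison, and 0.05 was the threshold. DESeq2 1.42.0, other references, other filters and scalings, and left-out libraries were alternatives. The fit was tested on counts simulated for spleen only, with cisplatin against CMCTween. It recovered 42.7% of 96 genes changed 2-fold and 81.0% of 100 changed 4-fold, with 7 false calls of 129 over 9835 genes. Other tissues, and differences between library sets, were not simulated.

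The members, lists and sets were chosen with earlier results of these data known. By the rule for names, every result names the 6 genes; combinations of drug and tissue with at least 3 of the 6 called are described singly, the 3 genes most like each gene may be named, and from each list 2 to 4 of those called with the largest change. Called genes outside that rule, and pairs with fewer calls, were named after their values were seen. Counts of the first 2 libraries of each group gave a chi-square per degree of freedom of at least 1.11 in all 432 groups. None of these pairs was therefore counted as a copy. Copies across groups or tissues were not looked for, and the value does not show whether a pair shares an RNA sample or a mouse. Immunoglobulin genes and sequences that were not matched were not analysed here, and some genes that the rule for names would give are not reported here.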

Additional observations from a re-analysis of the deposited data

Results flagged for a closer look

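Among the 4 Asenapine libraries of brain, replicate 4 held 1 count each of Cd79b and Ms4a1 (1.06 CPM each), and replicate 1 held 2 counts of Jchain (2.02 CPM), with 0 in the other libraries of each gene. Where all other libraries are at 0, any single read gives the largest possible gap, so nothing is read from these values. The response of Jchain to cisplatin differed between bone marrow and spleen by 0.94 ± 0.31 on the log2 scale (edgeR, adjusted p = 0.0414), with the larger fall in spleen. Leaving out any 1 of the 8 libraries ended that call.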

How the results depend on the processing

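Of the counts of calls, 126 recomputed values stayed within 1.5 times the reported one and 27 did not. Of the called changes, Mzb1 with Sofosbuvir in ileum changed sign with its reference (-1.05, and 0.37 against Sucrose alone). With no filter on low counts the drug calls were 120 in place of 60, and the Sucrose calls 12 in place of 7. Of the 120, 118 were on pairs also tested with the filter, so few came from pairs that the filter had removed. Cisplatin gave 14 calls by DESeq2 (with no adjusted p for 5 of the 22) and 14 when adjusted over all comparisons, in place of 22. APAP and Sofosbuvir together gave 7 calls against Sucrose alone, in place of 15. APAP in jejunum gave 1 call in place of 3 with the libraries of set A only or against Sucrose alone, and 1 to 3 when 1 library was left out. Cisplatin in ileum gave 1 call in place of 4 when adjusted over all comparisons. With 1 library left out, cisplatin gave 2 to 4 calls in ileum, 2 to 5 in bone marrow, 3 in the parotid gland and 3 in spleen. DESeq2 gave 2 calls with cisplatin in the parotid gland, and no adjusted p for Cd79a and Cd22 there. Sucrose in the parotid gland gave 1 to 4 calls with a library left out, and in spleen 0 to 1. DESeq2 gave 0 calls with Sucrose in the parotid gland, where it gave the 3 genes called by edgeR no adjusted p. Between bone marrow and spleen, 1 gene differed with CMCTween as reference, 4 with all other groups as reference and 0 with any library left out. Between groups of the same tissue, replicate numbers showed no general pairing by the median. Over 421 pairs of groups the correlation of same-numbered deviations had a median of 0.019 (-0.65 to 0.68). It was over 0.1 in 83 pairs and under -0.1 in 34, and whether some groups were paired was not tested. Whether same-numbered libraries of different tissues come from the same mouse was not tested. With a replicate block the drug calls were 55, cisplatin calls 18 and Sucrose calls 9. The block ended the calls of Cd79a with Asenapine in spleen (0.35, adjusted p = 0.254) and the parotid gland (1.5, 0.199), whose replicates 3 and 4 carry numbers that the other drugs of set B do not, and with Lurasidone in bone marrow (-0.87, adjusted p = 0.0563). With 2 libraries a group, and few counts for Cd79a, Cd22 and Cd79b outside lymphoid tissue, a gene that was not called may still have changed.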
